A study of Zea mays with 17 samples.

Results

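The tapetum (TAP) was set against the meiocytes (ME) that it surrounds in maize anthers 2.0 mm long, over the nuclear genes. These were taken as the rows of the count table whose identifier starts with Zm00001d, which are 44146 of 46430 rows. The libraries of interest are TAP at 2.0 mm and ME at 2.0 mm, with 2 libraries each out of 17 in the series. All plants were of the W23 bz2 inbred line, labelled Wild type_W23 and grown in a greenhouse, so every group shares that background. Cells were taken by laser capture microdissection (LCM), and libraries were made from total RNA with CEL-seq2, which primes on poly(A) tails and counts the 3' ends of transcripts. Other captured groups of the series are TAP and ME at 1.5 mm and other somatic cells (OSC) at both lengths, with fixed whole anthers (FA) beside them. The labels do not say whether replicates came from separate plants, so the p-values measure the spread between these libraries.

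The tapetum is the innermost somatic layer of the anther wall. It nourishes the germ cells, secretes the enzymes and wall material that the young microspores need, and later breaks down. Meiocytes are the germ cells that go through meiosis. In maize anthers the tapetum is also known as a source of phased small RNAs, and the study asked whether such RNAs pass from tapetal into meiotic cells. The comparison of both cell types at one length asks which genes tell these neighbours apart.

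Identifiers of the nuclear genes are paired with names neither in the count table nor in RefSeq's genes for Zm-B73-REFERENCE-NAM-5.0, where 0 of the 44146 matched. The genes are therefore given by identifier, with no role. Marker genes of the tapetum, the meiocytes and the other somatic cells were listed by symbol and could not be matched to identifiers with the reference used here, so the labels of the captured cells were not checked against markers.

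The TAP libraries held 2657831 and 3230264 counts, against 974064 and 559302 counts in the ME libraries. The deepest of the 4 thus had 5.78 times the counts of the shallowest. Levels are given as CPM, counts per 1000000 counts of the library, without division by gene length. A gene with no count can have had up to 3 by counting error alone, which is 1.13 and 0.929 CPM in the TAP libraries and 3.08 and 5.36 CPM in the ME libraries. These limits, and the intervals below, cover counting error only. When each captured library was thinned to 280760 counts, 13005 and 12810 nuclear genes had at least 1 count in TAP, against 10736 and 9834 in ME. Both TAP libraries lay above both ME libraries, although 2 libraries against 2 cannot go below p = 0.333 in an exact two-sided permutation test.

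The replicates of TAP correlated more closely with each other than those of ME, which had fewer counts. Pearson's r of log2(CPM + 1) across nuclear genes was 0.823 between the TAP libraries (14026 genes) and 0.466 between the ME libraries (9203 genes), while TAP and ME libraries correlated with r between 0.103 and 0.194. The chi-square of counts per degree of freedom was 18.9 between the TAP libraries, near the 20.4 between the ME libraries. The part of depth in these values was not tested. Genes are not independent replicates, so these values only describe the libraries. The first ME library at 2.0 mm was closer to the second ME library at 1.5 mm (r = 0.755, 12291 genes) than to its own replicate, and the chi-square of counts per degree of freedom was also lower for that pair, at 14.5, against 20.4 between the ME replicates at 2.0 mm. For the other pairs of ME libraries across lengths r was higher than between these replicates (0.532 to 0.614) but the chi-square was higher too (22.7 to 43.4), and r rests on a different set of genes in each pair. Whether the length on the label holds for each ME library was not tested, which bears on the 1.5 mm values and on the change with length below. Calls are therefore also given below with each of the 4 libraries left out.

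Of the 44146 nuclear genes, 20638 had at least 1 count in the 4 libraries and 23508 had none. The low-count filter, run on all 12 captured libraries, passed 16676 nuclear genes to the test and kept out 5112 that had counts in TAP or ME at 2.0 mm. The genes tested include some with no count in these 4 libraries, which passed on other captured libraries. They stay in the shares over all tested nuclear genes given below. In edgeR's quasi-likelihood test, 3060 nuclear genes were higher in TAP than in ME and 1563 were lower at a Benjamini-Hochberg adjusted p under 0.05 (called genes, below). Over all 16940 rows tested, 18.1% were called higher in TAP and 9.66% lower. The nuclear genes make up nearly all of that table, so their counts are the background itself. Every row called higher in TAP was nuclear. In such bulk samples, fewer cells of a type and less RNA per cell cannot be told apart.

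Both TAP libraries lay above both ME libraries for all 3060 genes called higher, and below them for 1496 of the 1563 genes called lower. Without regard to the test, 40.9% of the tested nuclear genes separated with TAP above ME and 21.2% with TAP below. The excess of genes higher in TAP came with a shift of the whole table, and the size of that shift differed with scaling, tool and thinning. Thinning also changed the set of genes tested, and the part of depth was not tested. The median log2 fold change of TAP over ME over all tested nuclear genes was 0.70 with TMM scaling, 0.56 with library totals and 0.28 with RLE factors. It was 0.15 with DESeq2, and 0.15 over the 10407 nuclear genes tested after thinning to one total. Genes higher in TAP were 66.2% of the called genes with TMM, 57.4% with RLE factors and 56.5% after thinning to one total. The log2 fold changes of single genes were tested against 0 on the TMM scale and were not corrected for that shift.

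Without the first TAP library 1756 genes were called higher in TAP and 939 lower, and without the second 1629 and 694. Without the first ME library the counts were 2088 and 1176, and without the second 1881 and 1198. In each case the remaining library of the group was taken to vary like the other groups. These smaller lists lay mostly within the reported one: between 84.4% and 98.4% of their genes were called in the same comparison with all 12 libraries, which is 49.4% to 60.1% of the reported genes.

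**Figure D1:**
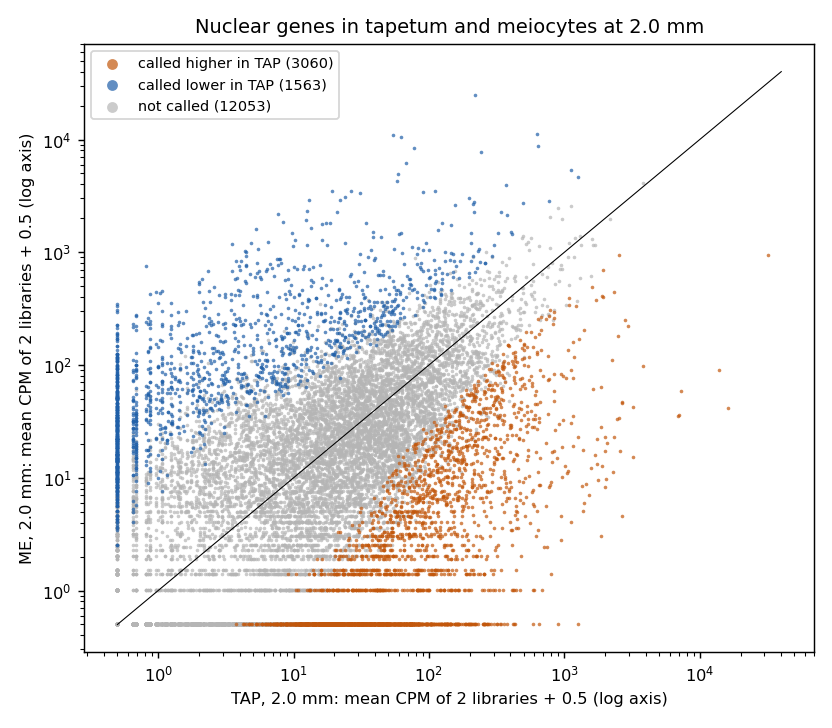
Mean CPM of the 2 TAP libraries (horizontal) against that of the 2 ME libraries (vertical) at 2.0 mm, with 0.5 added and log axes, for the 16676 nuclear genes tested. The 3060 genes called higher in TAP lie below the line of equality and the 1563 called lower lie above it. Points on the lowest row had no count in ME, and points on the left edge had none in TAP.

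The called genes held a large share of the counts of the cell type in which they were higher. Genes called higher in TAP took 53.4% and 52.7% of all counts in the TAP libraries, against 3.52% and 3.27% in the ME libraries. Genes called lower in TAP took 3.27% and 2.84% of the counts in the TAP libraries, against 45.1% and 48.4% in the ME libraries. The genes were chosen by this comparison, so the shares are a description with no test.

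The higher genes stood at a median of 55.2 CPM in TAP (middle 50% of genes from 24.9 to 142), and 69 of them averaged at least 1000 CPM there. The lower genes stood at a median of 86.0 CPM in ME (31.1 to 246), with 78 at 1000 CPM or more. With the lower group raised to the CPM of 3 counts where it was below, the median ratio of the higher over the lower group was 8.75 for genes higher in TAP and 21.0 for genes lower in TAP. A ratio of at least 100 was reached by 48 genes higher in TAP and by 173 genes lower in TAP. These ratios are limited by depth, which was lower in ME.

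Many called genes were not seen at all in the neighbouring cell type. No count was found in either ME library for 1466 of the genes higher in TAP (47.9%), and none in either TAP library for 443 of the genes lower in TAP (28.3%). Thinned to the same total, these were 1751 (57.2%) and 731 (46.8%) of the same lists. The genes were chosen for lower levels in the same libraries, so these shares describe the lists with no test. For all tested nuclear genes only shares by single library, before thinning, are given. By single ME library, 54.6% and 65.6% of the genes higher in TAP had no count, against 33.0% and 41.2% of all tested nuclear genes. By single TAP library, 34.3% and 42.9% of the genes lower in TAP had none, against 16.4% and 17.7% of all tested. Absence was thus more common in ME for tested genes at large. A count of 0 does not show that a gene was silent, and in ME it allows a higher level than in TAP.

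A larger share of the genes was called at higher levels. Among 6553 nuclear genes with a mean of less than 10 CPM over the 4 libraries, 566 were called higher in TAP and 258 lower, together 12.6%. Of 6135 genes from 10 to 50 CPM, 32.8% were called, and of 3115 genes from 50 to 200 CPM, 39.6%. Of the 80 genes at 1000 CPM or more, 32 were called higher in TAP and 33 lower, together 81.2%. More counts give the test more power, so the bands do not compare the extent of change at low and high levels.

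Single genes were named by a rule on the size of the ratio, the level in the higher group and the change with length. For contrast, the genes not called with the highest mean log2(CPM + 1) were added. The 10 genes named as higher in TAP by ratio or level are described first. The gene with the highest level was Zm00001d031168, with 37845 and 25604 CPM in TAP, against 777 and 1117 CPM in ME. The groups did not overlap, and TAP was 33.5 times higher (log2 fold change 5.23, standard error 0.55, edgeR adjusted p = 0.000255). This gene was abundant in the whole anther too, with 15342 and 20671 CPM in FA and 16323 and 18756 CPM in OSC at 2.0 mm.

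Zm00001d048165 had 21545 and 10899 CPM in TAP, against 37.0 and 44.7 CPM in ME. It was second in level and had the largest ratio once libraries under 3 counts are raised to 3, and its means were 397 times higher in TAP (log2 fold change 8.79, standard error 1.57, edgeR adjusted p = 0.00194). Its level varied widely elsewhere, with 32440 and 6736 CPM in OSC at 2.0 mm and, at 1.5 mm, 12090 and 38675 CPM in TAP against 18198 and 397 CPM in ME. Both ME libraries at 1.5 mm thus lay above the ME level at 2.0 mm, the first by far more than the second.

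The next genes by level were low in the other somatic cells. Zm00001d001829 had 10451 and 17499 CPM in TAP, against 127 and 53.6 CPM in ME. Zm00001d021226 had 7478 and 7055 CPM in TAP, against 95.5 and 21.5 CPM in ME. Zm00001d034966 had 6905 and 7117 CPM in TAP, against 51.3 and 19.7 CPM in ME. In all these genes both TAP libraries lay far above both ME libraries, and TAP was 154, 124 and 197 times higher in that order, with edgeR adjusted p-values of 0.00279, 0.00328 and 0.00151. OSC at 2.0 mm held 322 and 354 CPM of Zm00001d001829, 199 and 352 CPM of Zm00001d021226, and 207 and 349 CPM of Zm00001d034966. The first ME library at 2.0 mm had more of each than the second, while at 1.5 mm the second ME library held 773, 347 and 307 CPM, against 24.5, 9.44 and 13.3 CPM in the first. All are short, with table lengths of 402, 716 and 422 bases.

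Genes named for their ratio alone were near the counting limit in ME. Zm00001d002141 had 2738 and 2571 CPM in TAP, against 8.21 and 0 CPM in ME, 646 times higher on the means (log2 fold change 9.23, standard error 1.33, edgeR adjusted p = 0.000679). Zm00001d004198 had 1506 and 2224 CPM in TAP, against 5.13 and 0 CPM in ME, 727 times higher on the means (log2 fold change 9.35, standard error 1.91, edgeR adjusted p = 0.00404). Each had counts in the first ME library only. Both genes were also well expressed in OSC at 2.0 mm, with 713 and 1028 CPM of Zm00001d002141 and 1029 and 977 CPM of Zm00001d004198. The call of Zm00001d004198 was lost without the second ME library, while its log2 fold change stayed at 8.58.

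Another pair of genes had no count in ME. Zm00001d047438 had 1370 and 1134 CPM in TAP, against 0 counts in both ME libraries, and was at least 297-fold higher in TAP, with 3 counts in each ME library as the limit (edgeR adjusted p = 0.00173). Zm00001d031101 had 899 and 896 CPM in TAP, against 0 counts in both ME libraries, and was at least 213-fold higher (edgeR adjusted p = 0.000262). The TAP replicates of the second gene were nearly equal. In OSC at 2.0 mm the first had 74.4 and 129 CPM and the second 220 and 230 CPM.

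Zm00001d014294 had 902 and 984 CPM in TAP, against 1.03 and 3.58 CPM in ME, which rest on 3 counts. On the summed counts TAP was 484 times higher, with an exact 95% counting interval from 166 to 2348. Its log2 fold change was 8.92 with a standard error of 1.02 (edgeR adjusted p = 0.000280). OSC lay between the groups at 2.0 mm, with 231 and 176 CPM.

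Next come the 11 genes named as lower in TAP by ratio or level. Zm00001d050069, the nuclear gene with the highest level among those lower in TAP, had 404 and 29.1 CPM in TAP, against 24570 and 25081 CPM in ME. ME was 115 times higher (log2 fold change of TAP over ME -6.67, standard error 1.32, edgeR adjusted p = 0.00350). The ME libraries agreed closely, while the first TAP library held over 10 times the level of the second. OSC at 2.0 mm had 364 and 138 CPM.

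The same inequality of the TAP libraries showed in other abundant genes of this group. Zm00001d003600 had 96.3 and 10.8 CPM in TAP, against 7869 and 14000 CPM in ME (log2 fold change -7.49, standard error 1.62, edgeR adjusted p = 0.00534). Zm00001d022618 had 119 and 3.71 CPM in TAP, against 8504 and 12669 CPM in ME (log2 fold change -7.25, standard error 1.65, edgeR adjusted p = 0.00684). In each, the second TAP library was the lower one and the ME libraries lay far above both. In OSC at 2.0 mm the first library was also the higher one, with 104 and 4.93 CPM of Zm00001d003600 and 71.1 and 7.21 CPM of Zm00001d022618.

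Over the 100 most abundant genes called lower in TAP, from 832 to 24826 CPM in ME, the first TAP library exceeded the second in 81. Over all tested nuclear genes it did so in 43.3%. Summed over these 100 genes, the level was 6.16% of the ME mean in the first TAP library and 5.16% in the second, and 8.12% in OSC. Summed over the 100 most abundant genes called higher in TAP, from 744 to 31724 CPM, the level in ME was 5.24% and 4.56% of the TAP mean, against 41.8% in OSC. In 72 of these the first ME library exceeded the second, against 40.8% of all tested nuclear genes. In the shares over all tested nuclear genes, a gene with no count in either library of the pair falls under not exceeding. Such genes lower the 43.3% and the 40.8%, so these shares are not a like background for the 100 most abundant genes. The part of RNA from neighbouring cells in the levels of the abundant genes was not tested. The replicates of the higher group differed by over 4-fold for 95 of the 3060 genes called higher in TAP (3.10%) and for 307 of the 1563 called lower (19.6%). For the latter the higher group is ME, with fewer counts, and the part of depth in these shares was not tested.

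Zm00001d006900 and Zm00001d030725 differed from the other abundant genes in that TAP kept a moderate level. Zm00001d006900 had 741 and 505 CPM in TAP, against 12467 and 9725 CPM in ME (log2 fold change -4.01, standard error 0.47, edgeR adjusted p = 0.000285). Zm00001d030725 had 674 and 609 CPM in TAP, against 8477 and 9049 CPM in ME (log2 fold change -3.62, standard error 0.42, edgeR adjusted p = 0.000280). ME was 17.8 and 13.7 times higher, with TAP replicates close together. OSC at 2.0 mm held 1654 and 1967 CPM of the first gene and 1116 and 1013 CPM of the second.

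The genes with the largest ratios in this direction were almost absent from TAP. Zm00001d019966 had 0 and 0.619 CPM in TAP, a sum of 2 counts, against 812 and 706 CPM in ME. On the summed counts ME was 2277 times higher, with an exact 95% counting interval from 629 to 18825, and the log2 fold change of -10.69 (standard error 1.05) had the lowest adjusted p of the named genes (edgeR, 0.000128). The groups were wide apart, and OSC at 2.0 mm also held little, at 2.66 and 7.97 CPM. The whole anther had 129 and 122 CPM in FA.

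Of the other 5, all but Zm00001d048975 had 2 or 3 counts over both TAP libraries. Zm00001d038352 had 1.13 and 0 CPM in TAP, against 282 and 622 CPM in ME. Zm00001d041438 had 0 and 0.929 CPM in TAP, against 627 and 261 CPM in ME. These ME libraries differed by more than 2-fold, in opposite directions. On the summed counts ME was 797 times higher for Zm00001d038352 (exact 95% counting interval 272 to 3877) and 969 times higher for Zm00001d041438 (330 to 4709). Their edgeR adjusted p-values were 0.000498 and 0.000540.

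Zm00001d046471 had 0.752 and 0.310 CPM in TAP, against 207 and 656 CPM in ME. Zm00001d047799 had 0.752 and 0 CPM in TAP, against 312 and 533 CPM in ME. Both were also at or near 0 in OSC at 2.0 mm, with 1.33 and 0 CPM of the first and 0.664 and 0 CPM of the second. On the summed counts ME was 728 times higher (248 to 3542) and 1156 times higher (319 to 9566), and the edgeR adjusted p-values were 0.00162 and 0.000918. Zm00001d048975 had 2.26 and 0.929 CPM in TAP, against 571 and 578 CPM in ME (360 times higher, edgeR adjusted p = 0.00155). Its ME replicates were nearly equal, and it had 0 and 4.93 CPM in OSC.

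**Figure D2:**
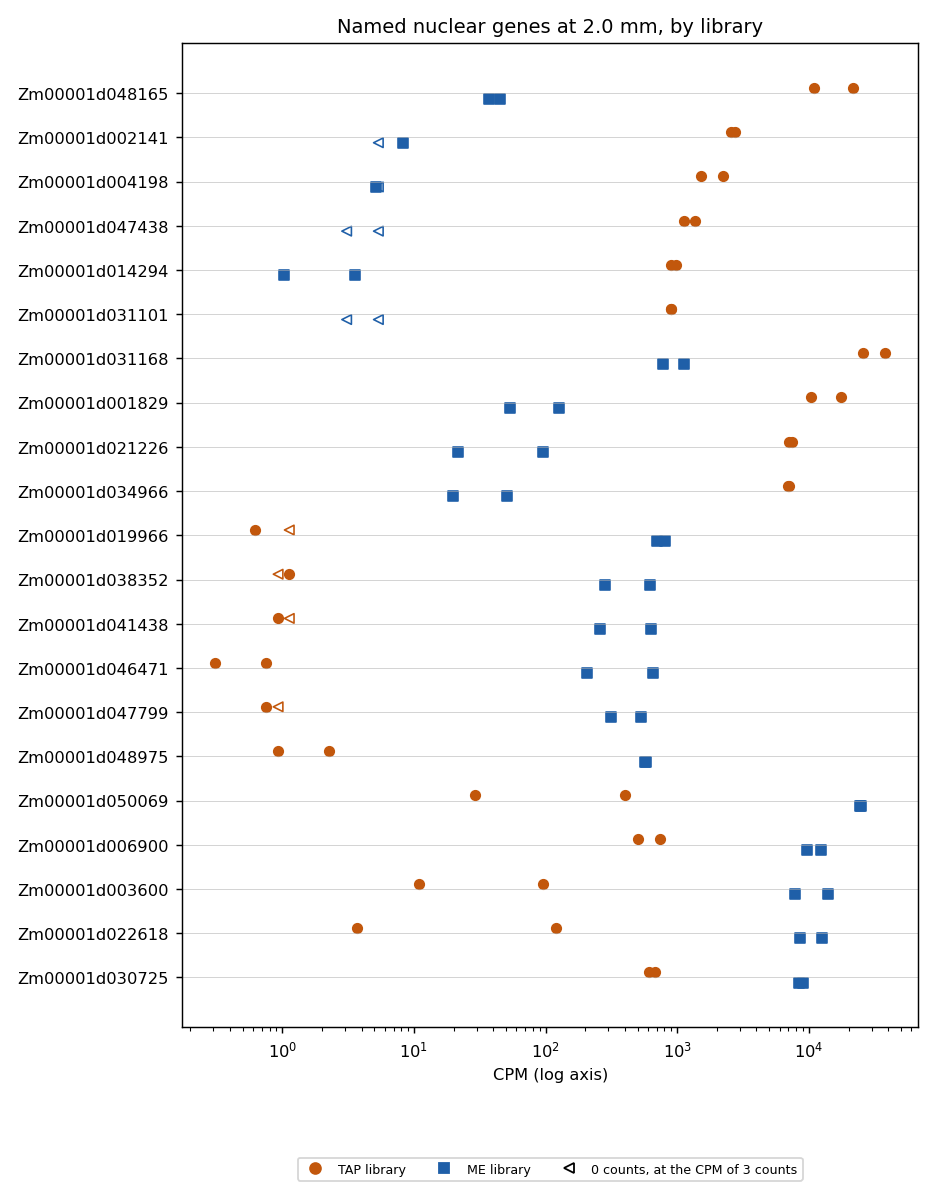
CPM (log axis) of the 21 genes named for their ratio or level in each TAP library (circles) and ME library (squares) at 2.0 mm. Open triangles mark libraries with 0 counts, drawn at the CPM of 3 counts. The upper 10 genes are higher in both TAP libraries, the lower 11 are lower in both, and the groups overlap in none.

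The 3 nuclear genes not called with the highest mean log2(CPM + 1) over the 4 libraries were also named. That ranking favours genes at like levels in both groups. Of these, 2 had log2 fold changes near 0 and the other lay closer to the threshold. Zm00001d019283 had 3594 and 4043 CPM in TAP, against 3334 and 4813 CPM in ME, with a log2 fold change of 0.06 and a 95% interval from -0.78 to 0.91 (edgeR adjusted p = 0.979). Zm00001d053090 had 2227 and 2142 CPM in TAP, against 2040 and 1913 CPM in ME, with a log2 fold change of 0.29 and an interval from -0.64 to 1.22 (edgeR adjusted p = 0.669). The sign of both changed with the scaling, at -0.39 and -0.14 with RLE factors. The libraries of the first gene overlapped, and both TAP libraries of the second lay just above both ME libraries. Zm00001d017121 had 1196 and 1042 CPM in TAP, against 2845 and 2256 CPM in ME. Its libraries did not overlap, its log2 fold change was -1.05 (interval from -1.99 to -0.10, edgeR adjusted p = 0.0902), and it was called lower in TAP with RLE factors, with DESeq2, with all 17 libraries and after thinning.

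Libraries outside the comparison placed the called genes in the rest of the anther. For genes called higher in TAP, the level in the other somatic cells was set against the TAP level. Against the mean in TAP, the OSC mean at 2.0 mm was within 4-fold for 2252 of the 3060 genes (73.6%), at least 4-fold below for 613 (20.03%) and at least 4-fold above for 195 (6.37%). With 2-fold as the limit, 42.7% were within and 42.3% below, where all tested nuclear genes had 31.8% and 42.0%. For the genes called lower in TAP the level in OSC was set against that in ME. Against the mean in ME, OSC was at least 4-fold below for 1076 of the 1563 genes (68.8%), within 4-fold for 418 (26.7%) and at least 4-fold above for 69 (4.41%). At 2-fold, 11.1% were within and 81.0% below. Over all tested nuclear genes at 4-fold, measured against the higher of TAP and ME, these were 23.4% below, 57.5% within and 19.2% above. Tested genes with no count in TAP or ME at 2.0 mm all fall under above in these shares. Such genes cannot be called, so the share above is not a like background for the called genes. The comparison chose which of TAP and ME was high, so the shares are a description.

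The medians per library cover all libraries. Genes called higher in TAP had medians of 53.1 and 57.4 CPM in TAP and 0 CPM in both ME libraries, while OSC at 2.0 mm had 40.5 and 43.3 CPM and FA at 2.0 mm 40.9 and 48.0 CPM. Genes called lower in TAP had medians of 1.88 and 0.619 CPM in TAP, against 78.0 and 87.6 CPM in ME. For these, OSC had 9.97 and 9.86 CPM and FA 26.6 and 21.2 CPM at 2.0 mm. Over all tested nuclear genes the medians in FA at 2.0 mm were 20.8 and 20.3 CPM. In the FA libraries at 2.0 mm, 5 and 4 of the genes called higher in TAP (0.163% and 0.131%) had no count. Of those called lower, 12 and 23 (0.768% and 1.47%) had none, against 1.16% and 2.87% of all tested nuclear genes. Nearly all tested genes, called or not, were thus seen in the whole anther.

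**Figure D3:**
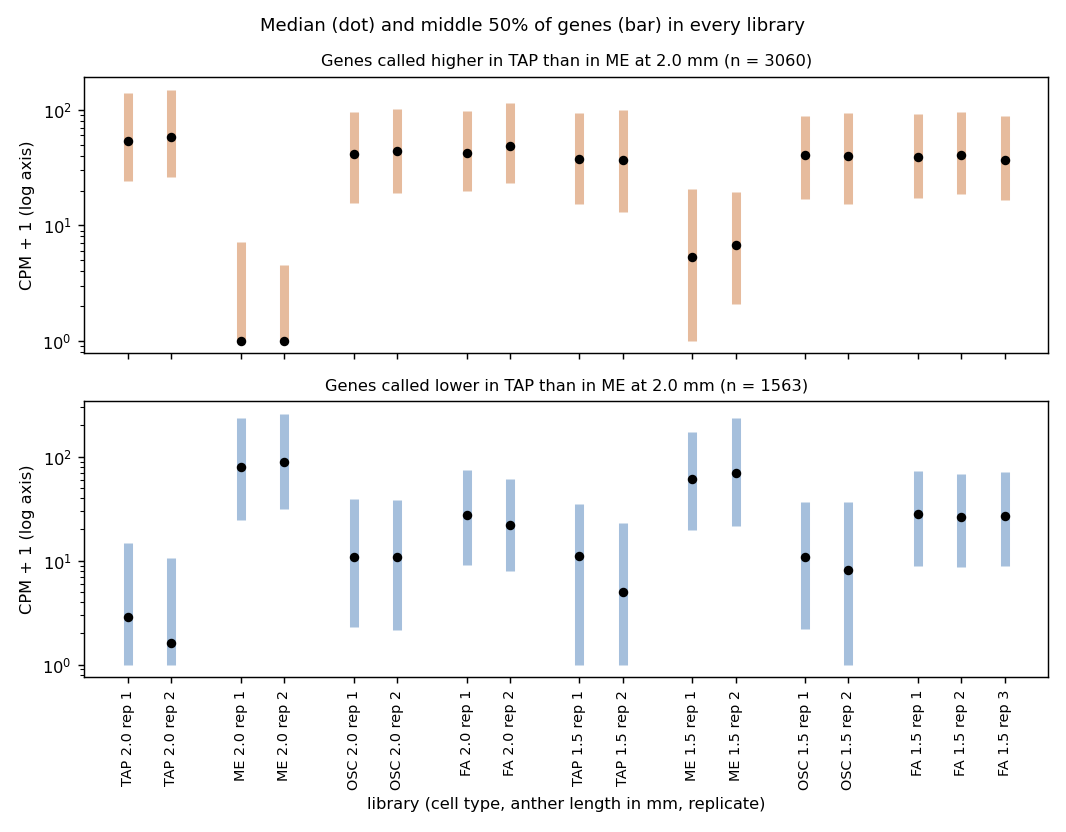
CPM + 1 (log axis) in each of the 17 libraries for the 3060 genes called higher in TAP than in ME at 2.0 mm (upper panel) and the 1563 called lower (lower panel); dots are medians over genes and bars the middle 50% of genes. The upper genes are low in the ME libraries of either length and near 40 CPM in OSC and FA, and the lower genes are high in the ME libraries, low in TAP and OSC, and between these in FA.

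The lists also differed in the gene length given in the table. Genes called higher in TAP had a median length of 2367 bases (middle 50% from 1488 to 4041), against 1796 bases (1221 to 2799) for genes called lower and 2177 bases over all tested nuclear genes. Counts of 3' ends do not grow with gene length as fragment counts do. The part of length in the calls was not tested.

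The same comparison at 1.5 mm uses other libraries. There, 1686 nuclear genes were called higher in TAP than in ME and 1201 lower, and over all 16940 rows 10.0% and 7.13% were called. Of the 3060 genes higher in TAP at 2.0 mm, both TAP libraries lay above both ME libraries at 1.5 mm for 2220 (72.5%) and below them for 90 (2.94%), and 980 were called higher and 16 lower. Of the 1563 genes lower in TAP at 2.0 mm, TAP lay below ME at 1.5 mm for 1239 (79.3%) and above for 79 (5.05%), and 716 were called lower and 8 higher. Over all tested nuclear genes TAP lay above ME at 1.5 mm for 33.1% and below for 24.1%. The 1.5 mm counts of calls varied widely with the libraries fitted and the tool. Without the first TAP library at 1.5 mm 620 genes were called higher and 461 lower, without the second 591 and 246, and without the second ME library 1500 and 1218. With only the 4 libraries of that length fitted, 211 genes were called higher and 194 lower. With all 17 libraries fitted 2839 were called higher and 2434 lower, and DESeq2 called 2711 higher.

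Whether the difference between TAP and ME changed with length was tested as the difference at 2.0 mm minus that at 1.5 mm. In edgeR's quasi-likelihood test 134 nuclear genes had a more positive difference at 2.0 mm and 44 a more negative one, and over all rows 0.791% and 0.325% were called. The more positive share was 75.3% with TMM and 50.6% of 158 genes with RLE factors. The count of 178 genes fell to between 6 and 31 without any one of the 4 TAP libraries, was 406 without the first ME library at 2.0 mm, and was 663 and 502 without the first and the second ME library at 1.5 mm. With only the 8 TAP and ME libraries fitted, 0 genes were called by edgeR and 1951 had an unadjusted p under 0.05, while DESeq2 on the 12 captured libraries called 951. Of the genes higher in TAP at 2.0 mm, 117 were among the more positive ones and 0 among the more negative. Of the genes lower in TAP, 31 were among the more negative and 2 among the more positive. Both tests use the same 2.0 mm libraries, so the signs are alike in part by construction.

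**Figure D4:**
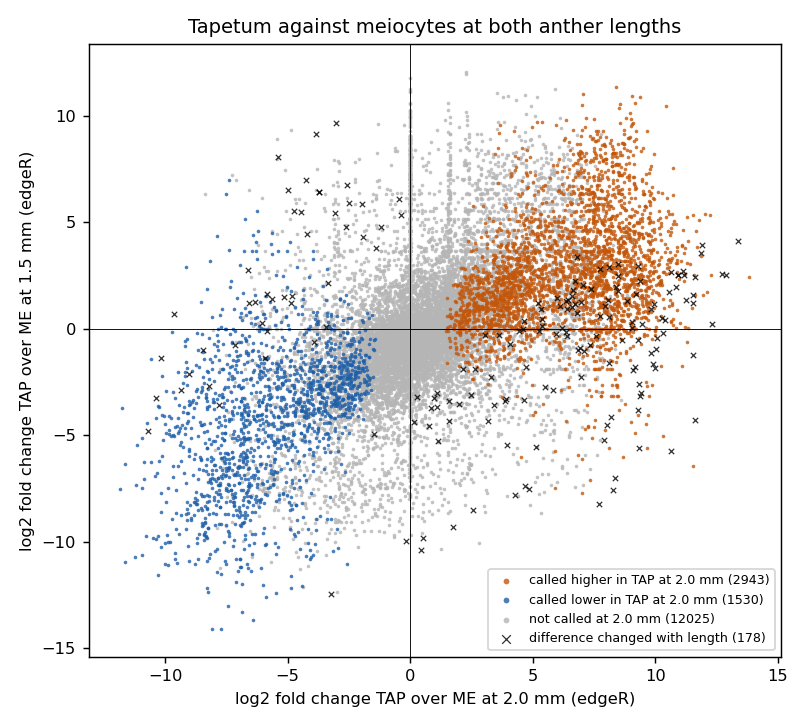
Log2 fold change of TAP over ME at 2.0 mm (horizontal) and at 1.5 mm (vertical) from edgeR for the 16676 nuclear genes tested; crosses mark the 178 genes whose difference changed with length, whatever their call at 2.0 mm. Most genes called at 2.0 mm lie on the same side of 0 at 1.5 mm, and the size of values for genes with no count in a group depends on the small count that edgeR adds.

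The genes with the most positive change had no count in TAP at 1.5 mm. Zm00001d034480 had 120 and 152 CPM in TAP at 2.0 mm, against 0 counts in both ME libraries. At 1.5 mm it had 0 counts in both TAP libraries, against 6.01 and 1.79 CPM in ME, and 3 counts are 6.06 and 5.98 CPM in these TAP libraries, so lower levels in TAP than in ME cannot be shown there. TAP was at least 32.2-fold higher than ME at 2.0 mm, and the change with length had an edgeR adjusted p of 0.0104. That call was lost after thinning to one total, where the log2 change was 10.47, against 16.38 without thinning. It was also lost with only the TAP and ME libraries fitted and without the first TAP library at 1.5 mm. OSC held 337 and 307 CPM at 2.0 mm, more than TAP.

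Zm00001d028474 had 2340 and 2234 CPM in TAP at 2.0 mm, against 21.6 and 0 CPM in ME (log2 fold change 7.71, standard error 1.60, edgeR adjusted p = 0.00492). At 1.5 mm it had 0 counts in both TAP libraries, against 0.429 and 41.1 CPM in ME. The second ME library at 1.5 mm thus held the gene while neither TAP library of that length did. The call of the change (edgeR adjusted p = 0.0274) was lost without that ME library and without the second ME library at 2.0 mm. It was also lost without any one of the TAP libraries and with only the TAP and ME libraries fitted.

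The genes with the most negative change had no count in TAP at 2.0 mm. Zm00001d014689 had 0 counts in both TAP libraries at 2.0 mm, against 29.8 and 127 CPM in ME, and 72.7 and 57.8 CPM in TAP at 1.5 mm, against 20.6 and 45.1 CPM in ME. Zm00001d030998 had 0 counts in both TAP libraries at 2.0 mm, against 110 and 105 CPM in ME, and 68.7 and 37.9 CPM in TAP at 1.5 mm, against 142 and 90.5 CPM in ME. ME kept both genes at either length, with overlapping libraries. TAP was at least 76.2-fold lower for the first and at least 105-fold lower for the second at 2.0 mm, and the edgeR adjusted p-values of the change were 0.0231 and 0.0343. The calls of both changes were lost with only the TAP and ME libraries fitted and without any one of the TAP libraries. That of the second gene was also lost after thinning.

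In 24 of the 16676 nuclear genes tested the difference was called at both lengths in opposite directions, with 16 higher and 8 lower in TAP at 2.0 mm. In either direction 4623 genes were called at 2.0 mm and 2887 at 1.5 mm, so such genes were few. Zm00001d045497 had 21.4 and 31.9 CPM in TAP at 2.0 mm, against 72.9 and 299 CPM in ME (log2 fold change -2.61, standard error 0.65, edgeR adjusted p = 0.0105). At 1.5 mm it had 1672 and 1130 CPM in TAP, against 53.2 and 30.8 CPM in ME (log2 fold change 4.79, standard error 0.71, edgeR adjusted p = 0.00181). The groups did not overlap at either length, and OSC had 73.8 and 93.3 CPM at 2.0 mm. The 2.0 mm call was lost without the first TAP library, without the second ME library and with only the 4 libraries fitted, and the log2 fold change without the second ME library was -1.35.

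Zm00001d047253 was the other gene of this kind that the rule named, and it was near the counting limit. It had 0.376 and 0 CPM in TAP at 2.0 mm, a single count, against 5.13 and 5.36 CPM in ME (edgeR adjusted p = 0.00462). At 1.5 mm it had 38.4 and 17.9 CPM in TAP, against 1.29 and 0.715 CPM in ME (log2 fold change 4.45, standard error 0.71, edgeR adjusted p = 0.00240). Its main level was in OSC, with 922 and 754 CPM at 2.0 mm. The 2.0 mm call was lost after thinning to one total.

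Among the genes named for ratio or level, the change with length was also called for Zm00001d002141, Zm00001d031101 and Zm00001d031168, with the more positive difference at 2.0 mm, and for Zm00001d019966 and Zm00001d038352, with the more negative one. Zm00001d031168 had 7277 and 8101 CPM in TAP at 1.5 mm, against 4312 and 1406 CPM in ME. At 1.5 mm Zm00001d019966 had 14.1 and 37.9 CPM in TAP, against 565 and 651 CPM in ME. At 1.5 mm Zm00001d019966 was called lower in TAP (edgeR adjusted p = 0.00270), while Zm00001d031168 was not called (log2 fold change 1.19, edgeR adjusted p = 0.0945). With only the TAP and ME libraries fitted, the change was called for none of the genes named for ratio or level. The change of Zm00001d031101 was also not called after thinning. Without any one of the TAP libraries the change was not called for Zm00001d002141, Zm00001d031101, Zm00001d019966 or Zm00001d038352. For Zm00001d031168 it was kept only where the TAP library left out was the second at 2.0 mm. The changes of Zm00001d002141 and Zm00001d038352 were also not called without the second ME library at 2.0 mm. Zm00001d053090, which was not called at 2.0 mm, was lower in TAP at 1.5 mm, with 364 and 414 CPM in TAP, against 3221 and 2821 CPM in ME (log2 fold change -3.23, standard error 0.47, edgeR adjusted p = 0.00180).

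**Figure D5:**
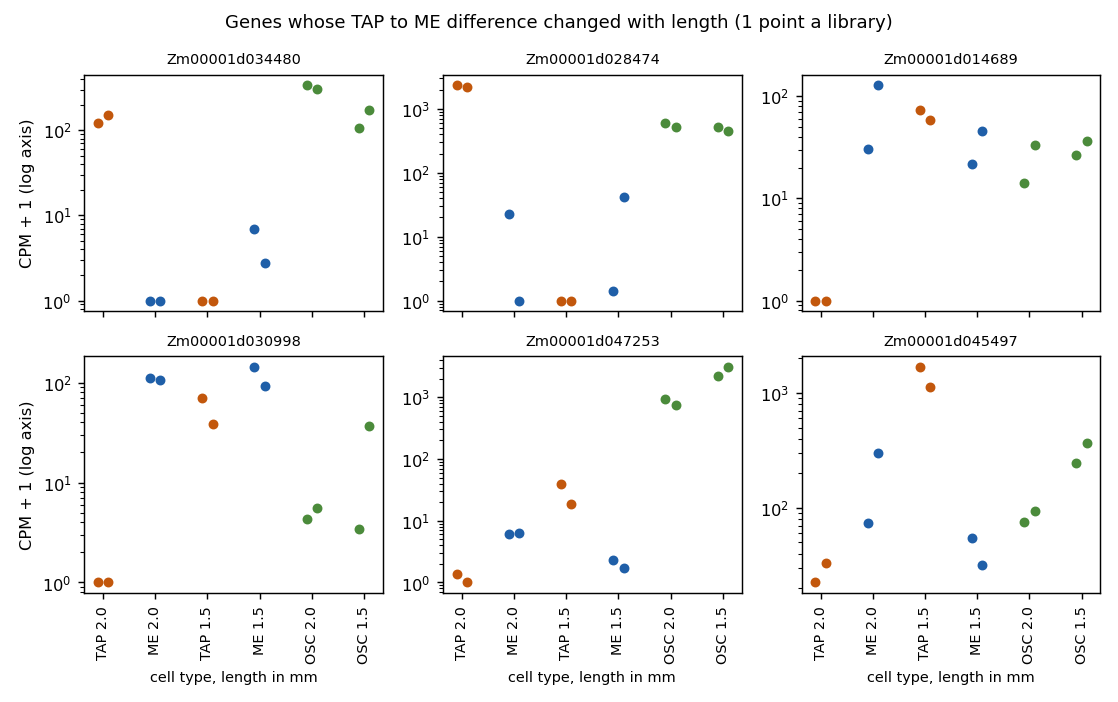
CPM + 1 (log axis) in each library of TAP, ME and OSC at both lengths for the 4 genes named for their change with length and the 2 called in opposite directions, with 1 point per library. Among the TAP libraries, the first pair has counts at 2.0 mm only and the next pair at 1.5 mm only, and the last pair is above ME in TAP at 1.5 mm and below it at 2.0 mm.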

How the data were processed

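Raw counts and a gene length in bases were deposited by the authors for 17 libraries. Fastp, Trim Galore and HISAT2 are named, with no version, per the submitters' processing notes. The counter, genome build, annotation, use of strand and treatment of molecular identifiers are not given in the sources used here, so genes that overlap or share reads with a near-identical copy are uncertain. Groups came from the sample titles.

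The 12 captured libraries were fitted together with edgeR 4.0.16 (limma 3.58.1, R 4.3.3), using the quasi-likelihood F-test with robust dispersions, TMM factors and filterByExpr by group (minimum count 10, minimum total 15). P-values were adjusted by Benjamini-Hochberg over all 16940 rows, with a threshold of 0.05, and the biological coefficient of variation was 70.6%. Standard errors are the log2 fold change over the square root of F. The script was tested on simulated data. Members, gene lists and tests were chosen with earlier results of these data known. Marker lists set by symbol could be matched to no row.

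Genes named were nuclear and, unless chosen as not called, called at 2.0 mm. Those for ratio, level or change with length also had groups that did not overlap and at least 20 mean counts in the higher group. They are the 6 with the largest ratio and the 5 with the highest CPM in each direction, the 3 most abundant not called, the 2 with the most positive and the 2 with the most negative change with length, and the 2 called in opposite directions with the lowest p-values. Ratios used 3 counts per library as the floor. Counting intervals are Clopper-Pearson intervals at 95%.

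Alternatives were RLE factors, library totals, no filter, DESeq2 1.42.0, a replicate block, all 17 libraries, only the libraries compared, thinning to 280760 counts, nuclear rows only and each TAP and ME library left out. Summaries used Python 3.11.15 with pandas 2.3.3 and SciPy 1.17.1.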

Additional observations from a re-analysis of the deposited data

Results flagged for a closer look

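The difference between TAP and ME at 2.0 mm was not the same as at 1.5 mm, by a test of the difference itself, for 178 nuclear genes. The counts of these genes without single libraries are given with that comparison in the results.

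Named genes for which the same test passed the threshold are given here by the log2 difference at 2.0 mm minus that at 1.5 mm, all from edgeR. The value was 16.38 for Zm00001d034480, 15.95 for Zm00001d028474, 9.24 for Zm00001d031101, 7.61 for Zm00001d002141, 4.04 for Zm00001d031168 and 3.51 for Zm00001d053090. It was -10.34 for Zm00001d014689, -8.76 for Zm00001d030998, -8.68 for Zm00001d047253, -7.40 for Zm00001d045497, -6.47 for Zm00001d038352 and -5.89 for Zm00001d019966. Values of genes with no count in a group depend on the small count that the fit adds. The sign was kept in each of these genes under all 17 alternatives. The call was lost for each with only the TAP and ME libraries fitted. It was lost after thinning to one total for Zm00001d034480, Zm00001d031101 and Zm00001d030998. Without the first TAP library at 1.5 mm it was kept only for Zm00001d047253 and Zm00001d045497.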

How the results depend on the processing

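Counts of nuclear genes at 2.0 mm ranged from 1629 to 2088 higher in TAP and from 694 to 1198 lower with 1 of the 4 libraries left out, and with all 17 libraries 2588 were lower; RLE factors, library totals, no filter, DESeq2, only the libraries compared, thinning and nuclear rows kept both counts within 1.5 times of the reported ones. At 1.5 mm, 2711 genes were higher with DESeq2, 2839 higher and 2434 lower with all 17 libraries, and 211 higher and 194 lower with only the libraries compared; leaving out 1 library gave 591 to 1500 higher and 246 to 1367 lower. The change with length was called for 951 genes with DESeq2, 1226 with all 17 libraries, 922 with no filter and 0 with only the libraries compared, and for 6 to 663 with 1 library left out. The causes were not tested. With the replicate number as a block, 2695 genes were higher and 1344 lower in TAP at 2.0 mm. The numbers did not pair TAP with ME: the correlation of deviations between them was 0.0288 at 2.0 mm and 0.0051 at 1.5 mm. It was -0.2245 between ME at 2.0 mm and ME at 1.5 mm, which both enter the change with length. What lies behind that value was not tested. The replicate block ended no call of a named gene at 2.0 mm. Before thinning, 16644 (TAP) and 11767 (ME) genes on average had a count, and after it 7856 and 6209 had at least 5. With 2-fold in place of 4-fold, OSC was below, within and above for 42.3%, 42.7% and 14.97% of genes higher in TAP. For genes lower in TAP these were 81.0%, 11.1% and 7.93%. Over all tested nuclear genes they were 42.0%, 31.8% and 26.1%, where genes with no count in TAP or ME at 2.0 mm fall under above. Genes lower in TAP with OSC above were 2.62% in the thinned data, and 3.30% to 5.09% with 1 library left out; these alternatives to the shares were chosen after seeing the data. Of 30 named genes, 26 kept their side of the threshold at 2.0 mm under all alternatives, and the other 4 are described with their exceptions; Zm00001d047253 was not tested with only the libraries compared. At 2.0 mm depth limits ratios most in ME; at 1.5 mm it does so in TAP, since 3 counts are 6.06 and 5.98 CPM in TAP, against 1.29 and 1.07 CPM in ME.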
